A study of Rattus norvegicus with 8 samples.

Results

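Cytosolic heat shock genes were followed in the striatum of rats that had self-administered methamphetamine (METH). They are the inducible HSP70 genes Hspa1a and Hspa1b, the constitutive HSP70 gene Hspa8, the HSP110 genes Hspa4 and Hsph1, the co-chaperone gene Bag3, the HSP40 genes Dnaja1 and Dnajb1, the HSP90 gene Hsp90aa1 and the small heat shock protein gene Hspb1. They make up 10 of the 17337 genes in the count table, and all 10 passed the filter on low counts, together with 12004 other genes. The 10 genes were selected on measured values of this same contrast, METH against saline, so their levels and fold changes are given as a description and carry no test. The samples are striata of male wild-type Sprague-Dawley rats, with 1 library per rat. In the METH group, 4 rats pressed a lever for intravenous infusions of METH at 0.05 mg/kg per infusion, in 2 h daily sessions over 16 days. In the saline group, 4 rats went through the same surgery and the same schedule with saline. All 8 rats had first learned to press for food and were chosen for stable lever pressing, and all were anaesthetised with ketamine and xylazine before the tissue was taken. The age of the rats and the time between the last session and tissue collection are not given in the sources used here.

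Heat shock proteins are chaperones that keep other proteins folded. The transcription factor HSF1 switches on the inducible members when unfolded protein accumulates, by binding promoter elements built from inverted repeats of the letters GAA. HSP70 proteins bind and release unfolded stretches in a cycle driven by ATP, which HSP40 proteins start and nucleotide exchange factors such as HSP110 and BAG proteins end; HSP90 takes over clients handed on from HSP70, and small heat shock proteins hold unfolded proteins without using ATP.

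Counts were scaled to CPM (the reads of a gene scaled to a common library size) with TMM factors, which correct for library composition. Total counts lay between 18135939 and 20832550 in the saline rats and between 18520038 and 21211920 in the METH rats, so that 3 counts correspond to 0.142 to 0.169 CPM. METH rat 3 stood apart from the other libraries. On the first principal component, which carried 26.4% of the variance, it lay at 39.5, the other METH rats between 0.257 and 5.29 and the saline rats between -24.6 and -4.17. In saline rat 1, summed cortical marker genes such as Slc17a7 reached 79.4 CPM, against 3.35 to 4.11 CPM in the other saline rats and 3.74 to 13.5 CPM in the METH rats. Values without these rats are therefore also given for some genes. A gene for which none is given may still depend on these rats. Markers of striatal projection neurons were abundant in all 8 libraries, at a summed 16539 to 17591 CPM in saline rats and 17340 to 21482 CPM in METH rats, with METH rat 3 the highest. In whole tissue, fewer cells of a type and less RNA per cell cannot be told apart.

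METH rats had higher levels of both inducible HSP70 genes, of Hspb1, of Bag3 and of Dnajb1, and the other 5 genes differed little. Mean CPM was 6.30 times the saline mean for Hspa1b, 3.70 times for Hspa1a, 2.05 times for Hspb1, 1.64 times for Bag3 and 1.42 times for Dnajb1, but between 1.03 and 1.17 times for Hspa8, Dnaja1, Hsph1, Hspa4 and Hsp90aa1. In 6 of the 10 genes (Hspa1a, Hspa1b, Hspb1, Bag3, Dnajb1 and Hspa8) the 4 METH rats all lay above the 4 saline rats. Of the 12014 genes tested, 3.75% separated in that direction. All 10 fitted log2 fold changes were above 0, with a median of 0.37 and a range from 0.04 to 2.65, beside a median of -0.01 over all genes tested. By the call rule (FDR below 0.05 in the quasi-likelihood test of edgeR and mean log2 CPM above 1), 2 of the 10, Hspa1b and Hspb1, were called higher and 0 lower. The background was 0.449% of genes called higher and 0.0666% called lower. Because the 10 genes were chosen by this contrast, nothing is read from these counts.

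**Figure D1:**
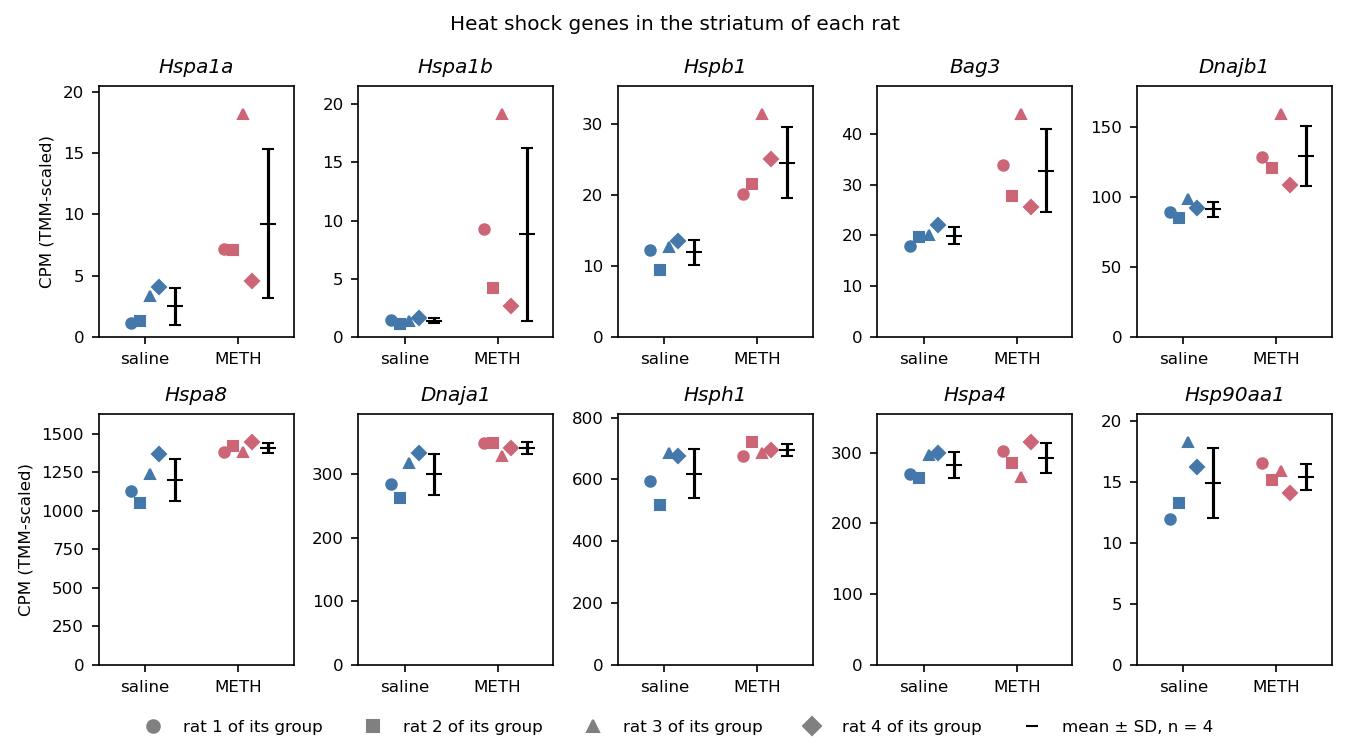
CPM (TMM-scaled, linear axes from 0) of each heat shock gene in each rat, saline in blue and METH in red, with a marker shape for each rat number and the mean ± SD (n = 4) beside each group. In Hspa1a, Hspa1b, Hspb1, Bag3 and Dnajb1 METH rat 3 (triangle) is the highest of the 8 rats, while Dnaja1, Hsph1, Hspa4 and Hsp90aa1 overlap between the groups.

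The promoters of these genes were searched for the letters of the heat shock element, to show what they carry near their start sites. The RefSeq promoter table (assembly GRCr8), with 250 bases before and 50 after each start, held an entry for 8 of the 10 genes, not for Hspa1b and Hsp90aa1. Both strands were searched for the 2-unit forms GAANNTTC and TTCNNGAA and for the 3-unit form TTCNNGAANNTTC, whose matches contain matches of both 2-unit forms. Hspa8, Hsph1 and Dnaja1 held the 3-unit form, which occurs in 0.798% of the 33469 promoters in the table. Hspa8 had 2 such matches, starting 213 and 55 bases before the start site, Hsph1 had 1 at 36 bases before it, and Dnaja1 had 1 at 10 bases after it. These are shown 5′ to 3′ on the gene's strand, in lower case, with the 3-unit match in capitals, at chr8:50080281-50080333 and chr8:50080439-50080491 (plus strand) for Hspa8, chr12:10427312-10427364 (plus) for Hsph1 and chr5:60638393-60638431 (plus) for Dnaja1.
Hspa8 distal: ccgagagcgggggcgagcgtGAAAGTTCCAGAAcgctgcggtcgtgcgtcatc
Hspa8 proximal: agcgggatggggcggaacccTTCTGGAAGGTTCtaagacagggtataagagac
Hsph1: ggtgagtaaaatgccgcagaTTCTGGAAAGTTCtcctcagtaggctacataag
Dnaja1: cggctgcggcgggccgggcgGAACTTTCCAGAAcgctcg

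Bag3, Dnajb1 and Hspb1 held the 2-unit form GAANNTTC without a 3-unit match. That form occurs in 8.59% of all promoters and in 6 of the 8 heat shock promoters, and the form TTCNNGAA in 8.77% and in 3 of the 8. The Bag3 match began 132 bases before the start site. Dnajb1 had a match 11 bases before and another 18 bases after its start, and Hspb1 had matches 129 and 109 bases before it. Capitals mark each 8-base match, at chr1:192533308-192533355 (plus strand) for Bag3, chr19:41431114-41431172 (minus) for Dnajb1 and chr12:26432383-26432450 (minus) for Hspb1.
Bag3: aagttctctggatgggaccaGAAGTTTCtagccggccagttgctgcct
Dnajb1: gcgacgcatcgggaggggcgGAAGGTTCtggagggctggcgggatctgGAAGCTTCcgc
Hspb1: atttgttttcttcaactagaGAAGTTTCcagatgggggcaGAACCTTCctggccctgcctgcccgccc
The entries for Hspa1a and Hspa4 held none of these letters, which says only that they are not in this window. The letters TGACGTCA, the cAMP response element bound by CREB, were in 1.83% of all promoters and in 0 of the 8. Side by side and with no test, the 3-unit form was found in Hspa8, Hsph1 and Dnaja1, with log2 fold changes of 0.17 to 0.23 (METH against saline). A 2-unit form alone was found in Bag3, Dnajb1 and Hspb1, with 0.50 to 1.04, and neither form in Hspa1a (1.87) or Hspa4 (0.05). Only exact letters were searched, so units with a changed letter were not counted. In the printed windows, GAG follows the first Dnajb1 match and GAT the first Hspb1 match at the same spacing. The split into 2 and 3 units depends on that rule, and nothing is read from it. RefSeq lists Hspa1b among the older symbols of Hspa1a, so the promoter entry named Hspa1a need not be the locus counted as Hspa1a.

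Hspa1a and Hspa1b encode the stress-inducible cytosolic HSP70, which is scarce in unstressed tissue. Hspa1b was at 1.48, 1.10, 1.40 and 1.61 CPM in saline rats 1 to 4 and at 9.25, 4.19, 19.1 and 2.64 CPM in METH rats 1 to 4. Every METH rat lay above every saline rat, but METH rat 3 had a level far above that of METH rat 4, which was the nearest to the saline rats. The group means were 1.40 ± 0.216 and 8.81 ± 7.45 CPM (SD, n = 4 each), a fitted log2 fold change of 2.65 with a standard error of 0.51. This was the 7th highest of the 12014 genes tested, and it was 1.94 without METH rat 3.

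Hspa1a was at 1.15, 1.35, 3.38 and 4.11 CPM in saline rats 1 to 4 and at 7.15, 7.09, 18.2 and 4.59 CPM in METH rats 1 to 4. The groups did not overlap, though saline rat 4 and METH rat 4 were close. Means were 2.50 ± 1.47 and 9.25 ± 6.07 CPM (SD, n = 4 each), with a log2 fold change of 1.87 and a standard error of 0.45, ranked 16th, and it was 1.32 without METH rat 3. Without saline rat 1 the log2 fold change of Hspa1a was 1.64. Saline rats 3 and 4 had more Hspa1a than saline rats 1 and 2, a difference that Hspa1b did not show.

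Because the genes are near-identical in sequence, reads can be split between them, and the annotation behind the counts and its handling of such reads are not stated. The names are not stable either, since RefSeq (GRCr8) lists Hspa1b among the older symbols of Hspa1a. The summed level of both genes does not depend on how reads are split between them. Reads that match both genes would still be missing from the sum if they were discarded, which is not known here. It was 2.63, 2.45, 4.78 and 5.72 CPM in saline rats 1 to 4 and 16.4, 11.3, 37.3 and 7.22 CPM in METH rats 1 to 4. The groups again did not overlap, and the means were 3.90 ± 1.61 and 18.1 ± 13.4 CPM (SD, n = 4 each). The log2 fold change of the sum was 2.20 with a standard error of 0.44, and it ranged from 1.57 (without METH rat 3) to 2.46 (without METH rat 4) when each rat was left out.

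Of the reads assigned to either gene, the share on Hspa1b varied between rats. It was 56.3% in saline rat 1 (27 of 48 reads, exact 95% binomial interval 41.2 to 70.5%), 44.9% in saline rat 2, 29.3% in saline rat 3 and 28.1% in saline rat 4 (34 of 121 reads, interval 20.3 to 37.0%). In the METH rats it was 56.4% in rat 1 (189 of 335 reads, interval 50.9 to 61.8%), 37.1% in rat 2, 51.3% in rat 3 (339 of 661 reads, interval 47.4 to 55.2%) and 36.5% in rat 4. The intervals of METH rats 1 and 3 did not overlap those of METH rats 2 and 4, so the share differed between METH rats by more than counting error. The mean share was 39.6 ± 13.5% in saline rats and 45.3 ± 10.1% in METH rats (SD, n = 4 each), a difference smaller than the spread between rats. These intervals cover counting error only.

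**Figure D2:**
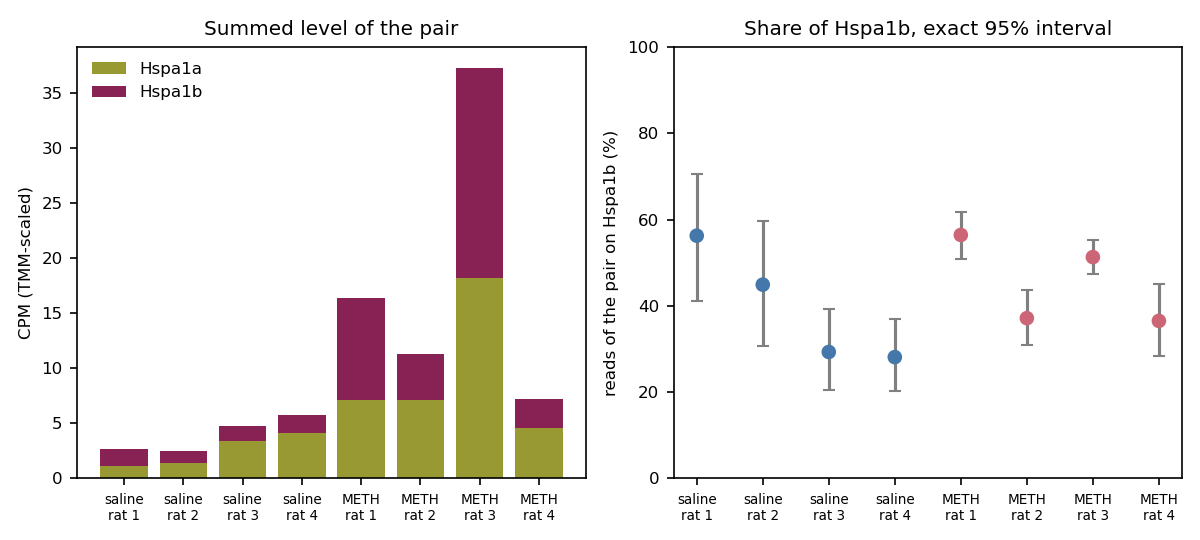
Left, stacked bars of the CPM of Hspa1a and Hspa1b in each rat (axis from 0); right, the percentage of the pair's reads assigned to Hspa1b, with exact 95% binomial intervals. The summed level is 37.3 CPM in METH rat 3 and 7.22 CPM in METH rat 4, and the share on Hspa1b varies from 28.1% to 56.4% without separating the groups.

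Hspb1, also called HSP27, is a small heat shock protein gene. It was at 12.2, 9.45, 12.7 and 13.6 CPM in saline rats 1 to 4 and at 20.2, 21.6, 31.5 and 25.1 CPM in METH rats 1 to 4. The lowest METH rat was well above the highest saline rat. Means were 11.98 ± 1.77 and 24.6 ± 5.03 CPM (SD, n = 4 each), and the log2 fold change of 1.04 (standard error 0.16) was 0.90 without METH rat 3 and 1.05 without saline rat 1.

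Bag3 encodes a nucleotide exchange factor that couples HSP70 to autophagy. Its level was 18.0, 19.7, 20.0 and 22.0 CPM in saline rats 1 to 4 and 33.8, 27.8, 43.9 and 25.5 CPM in METH rats 1 to 4. The saline rats were close together and the METH rats spread widely above them. The means of 20.0 ± 1.65 and 32.7 ± 8.21 CPM (SD, n = 4 each) gave a log2 fold change of 0.71 (standard error 0.15), which was 0.54 without METH rat 3.

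Dnajb1 encodes the HSP40 protein that starts the HSP70 cycle and is itself induced by heat shock. It was at 89.5, 85.3, 98.2 and 91.8 CPM in saline rats 1 to 4 and at 128.6, 120.9, 159.2 and 108.6 CPM in METH rats 1 to 4, again without overlap. Means were 91.2 ± 5.39 and 129.3 ± 21.6 CPM (SD, n = 4 each), with a log2 fold change of 0.50 (standard error 0.11) that became 0.39 without METH rat 3. Dnaja1, the other HSP40 gene, was at 285.1, 262.4, 317.6 and 332.5 CPM in saline rats and at 348.4, 348.1, 327.7 and 340.5 CPM in METH rats 1 to 4. METH rats 1, 2 and 4 lay above all saline rats and METH rat 3 was below saline rat 4. Its log2 fold change was 0.19 (standard error 0.08).

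Hspa8 encodes HSC70, the HSP70 made in unstressed cells, and Hsph1 and Hspa4 encode HSP110 exchange factors. Hspa8 was at 1132, 1053, 1242 and 1371 CPM in saline rats 1 to 4 and at 1381, 1422, 1384 and 1450.2 CPM in METH rats 1 to 4. The groups did not overlap, but METH rat 1 lay only just above saline rat 4. Its log2 fold change was 0.23 (standard error 0.08). Hsph1 was at 593.1, 517.0, 685.6 and 676.8 CPM in saline rats and at 676.0, 721.9, 686.0 and 693.4 CPM in METH rats 1 to 4, with METH rat 2 highest, METH rats 3 and 4 only just above saline rat 3 and METH rat 1 below saline rats 3 and 4. Its log2 fold change was 0.17 (standard error 0.09). Hspa4 was at 269.9, 264.5, 297.3 and 299.1 CPM in saline rats and at 302.2, 286.0, 266.1 and 315.7 CPM in METH rats 1 to 4. Its groups overlapped widely, METH rat 3 was near the lowest saline rats, and the log2 fold change was 0.05 (standard error 0.08).

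Hsp90aa1 encodes the stress-inducible cytosolic HSP90. It was at 11.97, 13.2, 18.3 and 16.3 CPM in saline rats 1 to 4 and at 16.6, 15.2, 15.9 and 14.1 CPM in METH rats 1 to 4. All METH rats lay within the range of the saline rats. The log2 fold change was 0.04 (standard error 0.14), and it changed sign to -0.05 without saline rat 1 and to -0.01 without saline rat 2. RefSeq (GRCr8) names 16 pseudogenes of Hsp90aa1, 33 of Hspa8 and 4 of Dnaja1, which can share reads with these genes, so their levels are uncertain. The saline mean was 14.9 CPM for Hsp90aa1, beside 2089 CPM for Hsp90ab1, the constitutive HSP90 gene. Whether Hsp90aa1 lost reads to other loci is not known, so its small fold change is uncertain too.

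**Figure D3:**
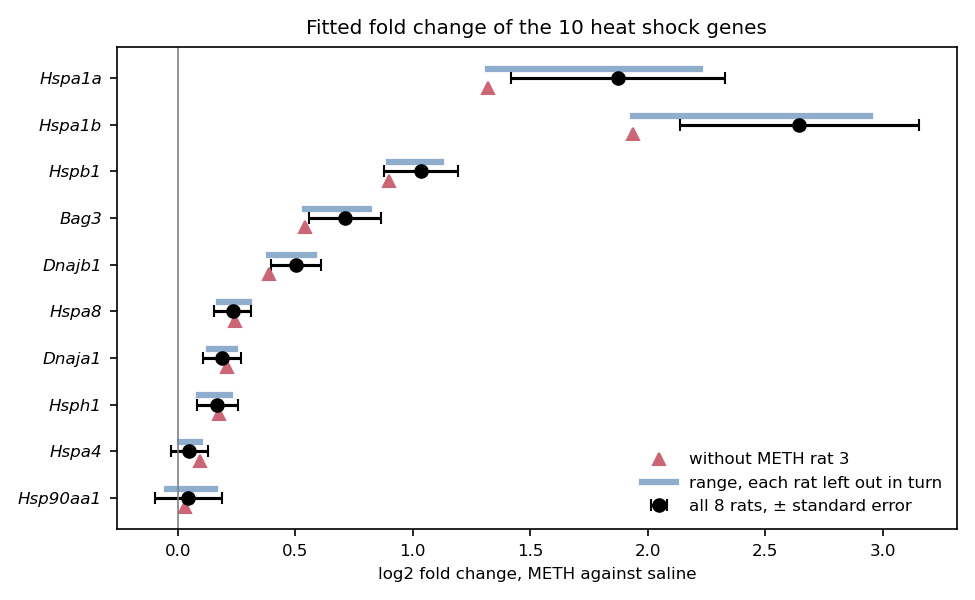
Fitted log2 fold change (METH against saline, edgeR) of each heat shock gene with all 8 rats (black, bars are the standard error), its range when each rat was left out in turn (blue bar) and its value without METH rat 3 (red triangle). Leaving out METH rat 3 lowers Hspa1b from 2.65 to 1.94 and Hspa1a from 1.87 to 1.32, and the ranges of Hspa1a, Hspa1b, Hspb1, Bag3 and Dnajb1 stay above 0.

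The rats did not differ in the same order in all 10 genes. In Hspa1a, Hspa1b, Bag3 and Dnajb1 the METH rats ranked 3, 1, 2, 4 from high to low, an order found in 5.06% of all genes tested. Hspb1 also peaked in METH rat 3, which made 5 of the 10 genes, beside 31.9% of all genes tested. Among saline rats, rats 3 and 4 had the highest levels in 9 of the 10 genes, against 22.7% of all genes. The spread within groups differed too. In METH rats the coefficient of variation was 84.6% for Hspa1b and 65.6% for Hspa1a, but 2.34% for Hspa8 and 2.84% for Hsph1 and for Dnaja1, beside a median of 12.002% over all genes. In saline rats those last genes varied by 11.5, 12.8 and 10.6%, near the median of 11.4%.

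To find which genes of the whole table followed the inducible HSP70 genes, each gene's log2 CPM was centred and scaled over the 8 rats and compared with the summed Hspa1a and Hspa1b level. The mean absolute difference had a median of 1.07 over 10966 genes. Among the other heat shock genes Dnajb1 (0.131), Bag3 (0.150) and Hspb1 (0.357) lay nearest, and Hspa8, Dnaja1, Hsph1, Hsp90aa1 and Hspa4 lay between 0.544 and 0.887. Outside them the nearest were Mesdc1 (0.145), Dpf2 (0.185), Spata2L (0.191), Coro7 (0.193) and Inpp5j (0.205). With each gene centred within its group, which removes the difference between METH and saline rats, the nearest were RGD1304595 (0.147), Fbxo39 (0.158), Coro7 (0.194), Dpp3 (0.194) and Galk2 (0.216). On that measure Dnajb1 (0.249) and Bag3 (0.252) were still nearer than the other heat shock genes outside the pair, Hspb1 was at 0.594, and Hsp90aa1, Dnaja1, Hspa8, Hsph1 and Hspa4 lay between 0.655 and 0.890, beside a median of 1.08 over all genes. Only Coro7 was in both sets of 5. METH rat 3 had a summed level of 37.3 CPM, against 7.22 to 16.4 CPM in the other METH rats, and Dnajb1 and Bag3 also peaked in it. Likeness without METH rat 3 was not computed, so how far nearness rests on that rat was not tested. All of these values come from the same 8 libraries and are a description, with no test.

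The rest of the chaperone network was examined in 10 lists of other genes, with 123 of 137 genes tested. The lists were drawn up with earlier results of these data known. Their counts are therefore a description, and nothing is read from them beside the shares of all genes. Of these, 81 had a log2 fold change above 0 and 42 below, with a median of 0.05, beside 5842 above and 6172 below and a median of -0.01 over all genes tested. By the quasi-likelihood test of edgeR with adjustment over all genes tested, 4 were called higher in METH rats, Ier5, Dnajb5, Jmjd6 and Manf, and 0 were called lower, beside 0.449% of all genes tested called higher and 0.0666% called lower. At an unadjusted p below 0.05, 25 were higher and 1, Hspa13, was lower, beside 6.26% and 4.88% of all genes tested. With DESeq2, 9 were called higher and 0 lower, beside 1.17% and 0.416% of all genes tested. Genes higher at the unadjusted p were 7 of 17 in the endoplasmic reticulum list, 6 of 16 for HSP90 and 4 of 17 other HSF1 targets. They were also 3 of 5 small heat shock genes, 2 of 6 regulators, 2 of 22 HSP40 genes and 1 of 14 mitochondrial chaperones. In the lists of other HSP70 genes, of BAG and exchange factors, and of CCT and prefoldin, 0 were higher.

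The regulators of heat shock transcription included the gene with the highest fold change of the network. Ier5, an immediate early gene whose product promotes dephosphorylation of HSF1, was at 64.5, 61.7, 53.0 and 64.9 CPM in saline rats 1 to 4 and at 113.3, 105.5, 147.7 and 141.3 CPM in METH rats 1 to 4. The groups were widely separated, and METH rats 3 and 4 were both high. On the log2 scale Ier5 rose by 1.06 with a standard error of 0.11 (edgeR FDR = 0.000472). The heat shock factor genes themselves were not called, with log2 fold changes of 0.23 for Hsf1 (FDR = 0.443, edgeR) and -0.15 for Hsf2 (FDR = 0.669, edgeR). Of the 6 regulators tested, 5 were above 0 and 1 was called, with a median of 0.29. Among those above 0, Hsf4 (0.35) had only 26 to 66 reads per rat and Hsf2bp (0.46) only 2 to 57. Neither was called, so the median rests partly on low counts.

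Dnajb5, an HSP40 gene close to Dnajb1 in structure, was at 124.1, 116.3, 127.8 and 129.5 CPM in saline rats 1 to 4 and at 195.0, 190.9, 255.6 and 227.0 CPM in METH rats 1 to 4. No METH rat came near the saline range. On the log2 scale Dnajb5 rose by 0.80 with a standard error of 0.10 (edgeR FDR = 0.00123). The other 21 HSP40 genes tested were not called. The 22 together had a median of -0.03, 8 above 0 and 14 below, down to -0.30 for Dnajb14.

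In the other HSP70 genes 0 of 7 were called and the median was -0.03. Hspa1l, the testis-type HSP70 gene, had 0.48 and shares 468 bases of its span with Hspa1a in RefSeq (GRCr8), so that reads may be shared, and Hspa13 had -0.45 (FDR = 0.307, edgeR). Among HSP90 and its co-chaperones 15 of 16 were above 0 with a median of 0.13, and 0 were called. At an unadjusted p below 0.05, 6 of the 16 were higher, beside 6.26% of all genes tested. Hsp90ab1, the constitutive HSP90 gene, had 0.08 (FDR = 0.663, edgeR), Stip1, which bridges HSP70 and HSP90, had 0.25 (FDR = 0.294, edgeR), Ahsa2 had 0.51 and Sugt1 -0.00. In the BAG and exchange factor list 0 of 7 were called, with a median of 0.04. Its extremes were Bag5 at 0.52 and Bag4 at -0.15. Bag5 had only 6 to 22 reads per rat, and its value was 1.10 without saline rat 1 and 0.29 without saline rat 4, while Bag4 was at -0.0016 without saline rat 3. Bag1 had 0.18 and Stub1, the ubiquitin ligase of HSP70 clients, 0.04, which was below 0 without METH rat 3 or saline rat 4 and with scaling to total counts.

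The other small heat shock protein genes had 4 of 5 above 0, a median of 0.22 and 0 called. Cryab, which encodes alpha-B crystallin, was at 32.6, 63.5, 60.0 and 75.6 CPM in saline rats 1 to 4 and at 89.4, 84.3, 123.9 and 77.3 CPM in METH rats 1 to 4. The groups did not overlap, but saline rat 4 and METH rat 4 were close and saline rat 1 was low. Its log2 fold change of 0.69 did not pass the test (FDR = 0.226, edgeR), and it was 0.50 without saline rat 1. Hspb2 was at the other end of that list with -0.20. Cryaa, Hspb3, Hspb7 and Hspb9 were too low to be tested.

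Chaperones of other compartments gave the following counts. In the endoplasmic reticulum list 15 of 17 were above 0, with a median of 0.16, and 7 were higher at an unadjusted p below 0.05, beside 6.26% of all genes tested. Manf, a secreted protein that binds the chaperone BiP, was called, at 53.1 ± 3.89 CPM in saline rats and 72.3 ± 6.66 CPM in METH rats (SD, n = 4 each), a rise of 0.44 on the log2 scale with a standard error of 0.09 (edgeR FDR = 0.0473). Hspa5, which encodes BiP, was at 326.1, 283.5, 444.8 and 449.8 CPM in saline rats 1 to 4 and at 480.0, 604.4, 502.9 and 536.9 CPM in METH rats 1 to 4. These groups did not overlap, with saline rats 3 and 4 nearest to the METH rats, and the log2 fold change of 0.50 did not pass the test (FDR = 0.175, edgeR). Sdf2l1 had the highest value of that list, 0.60, and Dnajc10 the lowest, -0.18. Without METH rat 3, Sdf2l1 was at 0.45. The mitochondrial chaperones had 5 of 14 above 0, a median of -0.01 and 0 called, with Hspa9 at -0.06, Dnajc15 at 0.20 and Hscb at -0.33. The cytosolic folding complexes CCT and prefoldin had 10 of 12 above 0, a median of 0.04 and 0 called, from -0.07 for Cct8 to 0.11 for Pfdn5.

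The last list was drawn up as other HSF1 targets, but it also held genes such as Rbm3, and membership was not checked. Of its 17 genes tested, 11 were above 0, with a median of 0.06, which is not a value for HSF1 targets alone. Jmjd6, which encodes a nuclear hydroxylase, was called, at 20.3 ± 0.660 CPM in saline rats and 29.2 ± 3.11 CPM in METH rats (SD, n = 4 each), a rise of 0.52 on the log2 scale with a standard error of 0.10 (edgeR FDR = 0.0359). Rbm3, which is induced by cold, had the lowest value of the list, -0.23. Without METH rat 3, the log2 fold change was 0.98 for Ier5, 0.72 for Dnajb5 and 0.45 for Jmjd6. The calls of Ier5 and Dnajb5 held without any single rat. Jmjd6 was called with METH rat 4 left out but not with any other rat left out, and Manf only with saline rat 3 or METH rat 1 left out, so that the 4 calls became 2 or 3.

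**Figure D4:**
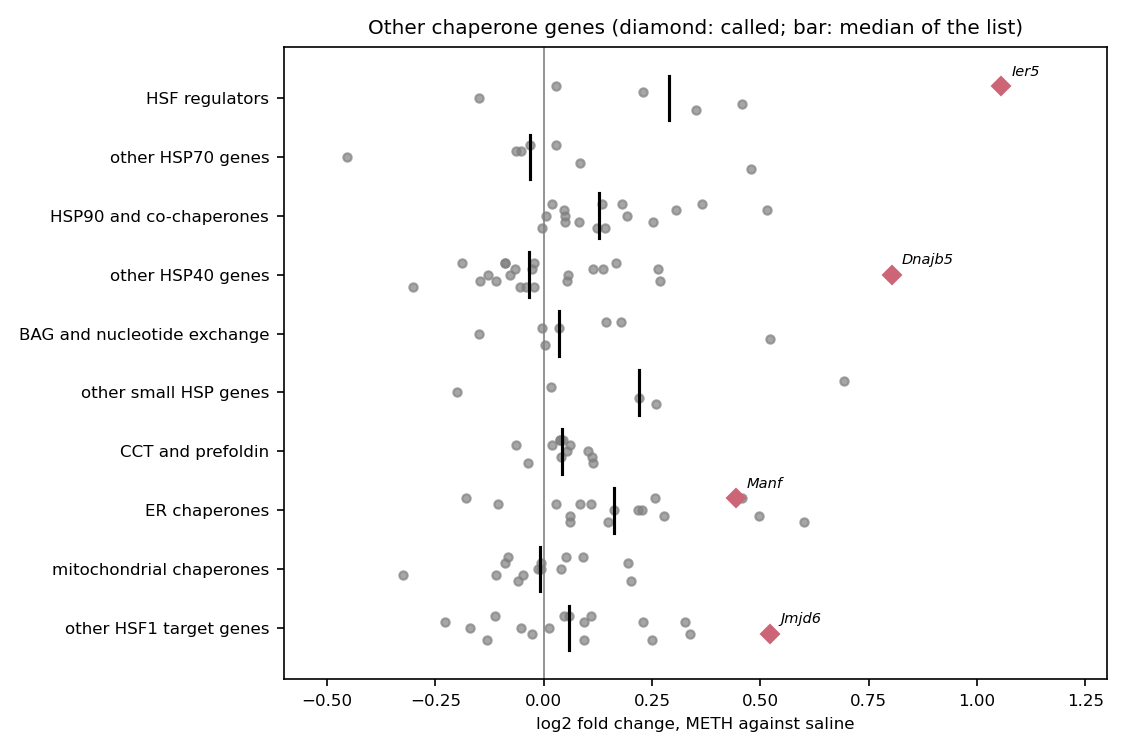
Fitted log2 fold change (METH against saline, edgeR) of the 123 other chaperone genes tested, in 10 lists; each point is a gene, red diamonds are genes called higher in METH rats and black bars are list medians. The called genes are Ier5 (1.06), Dnajb5 (0.80), Jmjd6 (0.52) and Manf (0.44), and the list medians lie between -0.03 and 0.29.

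Other gene groups moved with METH or with METH rat 3. Summed immediate early genes were at 616 to 1038 CPM in saline rats, the highest being saline rat 1, and at 1661 to 2462 CPM in METH rats, with 12 of 12 above 0 and 10 called higher by edgeR. The summed striatal projection neuron markers were highest in METH rat 3, with 7 of 11 above 0 and 0 called. Endothelial and pericyte markers were at 483 to 688 CPM in saline rats and 478 to 513 CPM in METH rats, with 1 of 8 above 0. Microglial markers were at 344 to 405 CPM in saline rats and 309 to 375 CPM in METH rats, with 1 of 8 called lower. Astrocyte markers were at 2096 to 2378 CPM and 2036 to 2516 CPM, oligodendrocyte markers at 13262 to 19086 CPM and 12500.2 to 18616 CPM and general neuronal markers at 2542 to 2960 CPM and 2264 to 2592 CPM in saline and METH rats. Choroid plexus and ependymal markers, of which 1 of 7 (Otx2) was at 0 in all rats, were at 22.9 to 36.8 CPM and 33.1 to 50.2 CPM, and blood markers at 133 to 256 CPM and 126 to 241 CPM. These marker lists, too, were chosen with earlier results of these data known. The part of these groups in the heat shock values was not tested.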

How the data were processed

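Poly(A) RNA from the striatum of 8 rats (4 saline, 4 METH) was sequenced as paired-end libraries with a kit that does not mark strand. After adapter trimming (Cutadapt 1.18), the authors mapped reads to the rn6 assembly by STAR 2.7.0e, assigned them to genes by featureCounts (Subread 1.6.4) and deposited raw counts, 1 column per rat. The annotation, strand setting and treatment of reads with several matches are not given in the sources used here, which leaves near-identical and overlapping genes uncertain.

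Counts were analysed in R 4.3.3 with edgeR 4.0.16: filterByExpr (minimum count 10), TMM, quasi-likelihood F-test and Benjamini-Hochberg adjustment over all genes tested. Genes were called at FDR below 0.05 and mean log2 CPM above 1. Log2 CPM for the principal component and likeness used 2 as prior count. A standard error here is the log2 fold change divided by the square root of F. The steps were tested on simulated counts. Total counts of 18135939 to 21211920 per rat limit precision for low genes. Pairs of rats within a group differed beyond counting noise (chi-square divided by its degrees of freedom, 10.1 to 27.6), so each rat was a replicate.

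The members, gene lists and marker lists were chosen with earlier results of these data known. The genes named are the 10 members; in the lists, every called gene, the highest and lowest of each list, and Hsf1, Hsf2, Hsp90ab1, Stip1, Hspa5, Hspa9, Cryab, Bag1, Stub1 and Dnajb5; and the 5 nearest genes by each likeness measure, among genes with mean log2 CPM above 1. Slc17a7, Otx2, Hsf4, Hsf2bp and the genes too low to test were named after their values were seen. Rat numbers come from the labels but denote different animals. With each gene centred within its group, the log2 CPM of same-numbered rats correlated at 0.01, -0.19, -0.20 and 0.04. These values showed no pairing by number, though so few rats cannot exclude shared handling. Alternatives were RLE, upper-quartile, total-count and Actb scaling, DESeq2 1.42.0, limma-voom (limma 3.58.1), other filters, summing Hspa1a and Hspa1b, the replicate block and leaving out each rat. No coordinates of rn6 are given; sequences are from RefSeq promoters of GRCr8.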

Additional observations from a re-analysis of the deposited data

Results flagged for a closer look

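METH rat 3 lay far from the other METH rats on the first principal component of log2 CPM over the genes tested. The gap between it and the nearest METH rat was 0.872 of the range of the 4 METH rats, above the 95% critical value of Dixon's test for 4 samples. That value assumes independent draws. The component was fitted to these same libraries and is drawn toward a library that differs, so the gap is a description only. There were 24 such groups: each of the 10 heat shock genes, the summed Hspa1a and Hspa1b level and the component, in each treatment. Of these, 1 passed. Chance passes about 1 in 20 of independent groups, but these groups share rats. In this rat the 10 most abundant genes took 6.06% of the counts, against 4.60 to 5.43% in the other rats, and its TMM factor was 0.956. Its part in the heat shock values was not tested beyond leaving it out.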

How the results depend on the processing

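The 10 heat shock genes gave 178 log2 fold changes under the alternatives, of which 176 kept their direction. Of these values, 0 moved by more than the spread between rats. Leaving out 1 rat of 4 can hardly move a value that far, so nothing is read from that count. Without METH replicate 3, Hspa1b fell from 2.65 to 1.94 and Hspa1a from 1.87 to 1.32. Hsp90aa1 changed sign, to -0.05 without saline replicate 1 and -0.01 without saline replicate 2. The number of heat shock genes called was 2 (Hspa1b, Hspb1). It became 4 with DESeq2 and with every gene of at least 1 count kept (Bag3 and Dnajb1 added). It was 1 (Hspb1) with limma-voom, with the replicate block and with Hspa1a and Hspa1b summed, where the sum itself was called. Beside these, the 62 calls over all genes became 191 with DESeq2, with 1.17% of genes called higher. They became 79 with every gene kept, 60 with limma-voom and 37 with the replicate block. Nothing is read from the heat shock counts. The number of heat shock genes called also depended on single rats. When each rat was left out it ranged from 1 to 4. It was 1 (Hspb1) without METH replicate 1 or 3 or any of the saline rats, and 4 without METH replicate 4. The 4 other chaperone genes called became 9 with DESeq2 (with Dnajb11, Fkbp4, Hspa5, Sdf2l1 and Serpinh1), 2 with Actb scaling and with the replicate block, and 2 to 3 with each rat left out; Ier5 and Dnajb5 were called in every alternative. Of the 28 other chaperone genes named by the rule above, Stub1, Sugt1 and Hspb2, none of them called, changed sign. Stub1 went to -0.0012 with total-count scaling and lay between -0.011 and 0.063 with each rat left out. Sugt1 then lay between -0.081 and 0.050 and Hspb2 between -0.475 and 0.048. The summed Hspa1a and Hspa1b level with each rat left out was added after seeing the data. With each rat left out, the 62 calls over all genes became 37 to 70, the lowest without saline replicate 2. The causes were not tested. Scaling moved the median of all genes only between -0.04 and -0.01. The levels of Hspa1a and Hspa1b rest on 21 to 87 and 22 to 34 reads per saline rat, so that counting error limits their fold changes, and 4 rats per group limit all of them.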
